A study of Rattus norvegicus with 16 samples.

Results

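Pioglitazone and methylprednisolone, given separately to rats with puromycin aminonucleoside nephrosis, were compared directly in isolated glomeruli, the filtering units of the kidney. All 4 libraries whose count columns carry the pioglitazone label (PAN+Pio) were set against all 4 that carry the methylprednisolone label (PAN+MP), 8 of the 16 libraries of the study, and every gene in the table entered the comparison. Rats of both groups received puromycin aminonucleoside (PAN), a toxin of podocytes, at 50 mg/kg into the tail vein on day 0. PAN+Pio rats then received pioglitazone by mouth at 10 mg/kg daily. PAN+MP rats received methylprednisolone by intraperitoneal injection at 15 mg/kg daily, so the drugs differed in dose and in route. The remaining groups served as anchors: PAN rats had the toxin and oral vehicle, and Sham rats were healthy controls on oral vehicle. The names of all 4 PAN count columns also hold the word high, which the labels do not explain, so whether it marks a dose or a selection of rats is not known for any value set against PAN. Glomeruli were taken on day 11, and the strain, sex and age of the rats, the hour of dosing and the hour of collection are not stated in the labels. The study's stated interest was in disease changes that both drugs lessen. A direct difference between the drugs asks the opposite question, which genes they leave at different levels.

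Both drugs act through nuclear receptors. Methylprednisolone is a glucocorticoid, and the glucocorticoid receptor (gene Nr3c1) raises genes such as Fkbp5, Tsc22d3 and Per1, represses many inflammatory genes, and resets circadian clocks in peripheral tissues. Pioglitazone is an agonist of PPAR gamma (gene Pparg), the receptor that drives fat cell formation and raises genes of fatty acid uptake, storage and oxidation, such as Fabp4, Cd36, Plin2 and Angptl4. The circadian clock is a feedback loop: BMAL1 (listed here under its older symbol Arntl) pairs with CLOCK or NPAS2 and activates the Per and Cry genes, whose proteins then repress the pair, while REV-ERB and ROR receptors set the level of Arntl. In the cell cycle, replication genes and histones are made as DNA is copied, and cyclin B with CDK1, spindle proteins and checkpoint kinases then drive and guard mitosis.

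The libraries held 24138545 to 26682386 counted reads in PAN+Pio and 27144706 to 32571877 in PAN+MP. Levels are given as CPM, a gene's reads relative to its library's total with TMM factors applied, and they compare a gene between samples and not with another gene. Log2 fold changes are PAN+Pio over PAN+MP with a standard error (SE), so positive values mean higher in PAN+Pio. A gene was called at an adjusted p under 0.05 in edgeR's quasi-likelihood test, and every adjusted p below is from that test. Libraries are numbered by the order of their columns, which is only a name. PAN+Pio library 3 carries an extra tag in its column name, whose meaning is not given. PAN+MP library 4 stood apart in glucocorticoid, lipid and neutrophil genes, and PAN+MP library 1 in interferon genes. The podocyte markers that define glomeruli were present at high level in all 8 libraries, with Nphs1, the slit diaphragm protein nephrin, at 2834 to 3319 CPM in PAN+Pio and 2734 to 3181 CPM in PAN+MP. Markers of the proximal tubule, which can be carried over with glomeruli, were also present, with a summed level over 24 tested markers of 6176 to 8297 CPM in PAN+Pio and 6320 to 9823 CPM in PAN+MP.

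Few genes were called between the drugs, and the called genes that stood on a list were mostly those of cell division, histones and the circadian clock. Of 17061 genes tested, 108 were called between PAN+Pio and PAN+MP, which is 0.633%. Of these, 73 were higher in PAN+Pio (0.428% of genes tested) and 35 were lower (0.205%). The difference was at least 2-fold for 62 of the 73 and for 16 of the 35. Of the 108 genes, 13 belonged to a list of DNA replication and mitosis, 11 carried a histone symbol, 7 were clock genes, and 75 stood in no list. The 95% interval of the fold change lay within 2-fold in either direction for 79.8% of the genes tested, and the median log2 fold change over all of them was 0.003. The 4 and 4 libraries did not overlap for 3.58% of genes in the higher and 3.39% in the lower direction. At an unadjusted p under 0.05, 1481 genes (8.68%) passed, the share to set beside the list counts below.

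**Figure D1:**
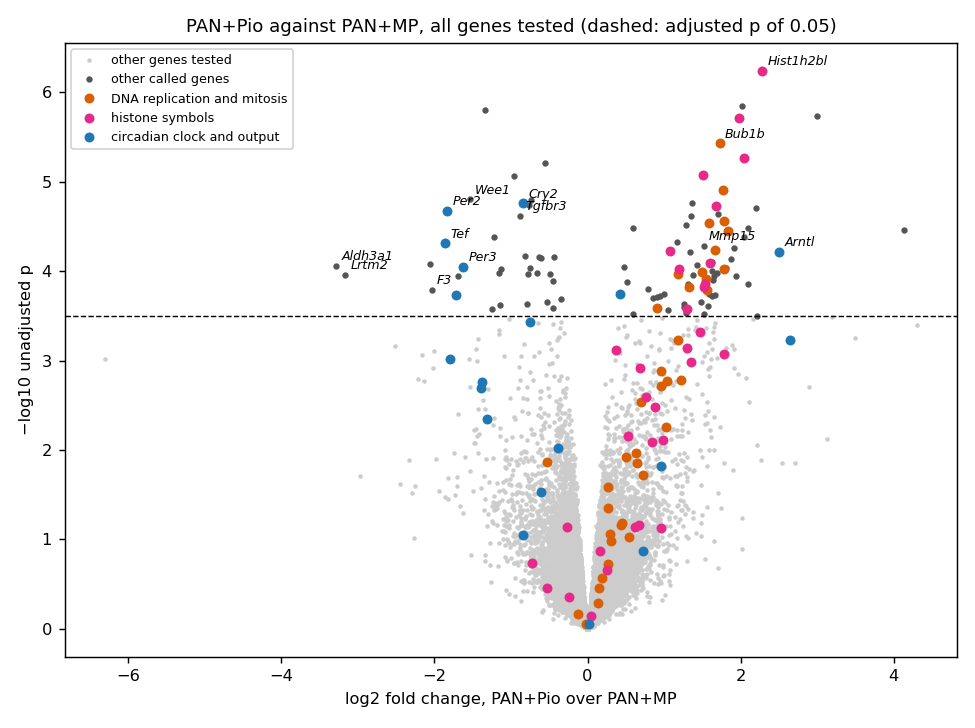
Each point is 1 of 17061 tested genes, with the log2 fold change of PAN+Pio over PAN+MP on the horizontal axis and the −log10 of the unadjusted p on the vertical axis, and the dashed line marks an adjusted p of 0.05 (edgeR). The called members of the mitosis list and called histone symbols lie to the right above the line, and called clock genes lie on both sides, with Arntl on the right and Per2, Per3, Cry2 and Tef on the left.

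These calls sat close to the threshold and depended on single libraries. None of the 32 named genes that were called changed sign in any of 15 alternative settings, but none was called in all of them. These genes were picked as called and the settings reuse the same libraries, so an unchanged sign is no separate support for the direction. Without PAN+MP library 2 or library 3 the count fell to 0 genes, with lowest adjusted p-values of 0.051 and 0.0577 (edgeR) and 1308 and 1263 genes at an unadjusted p under 0.05. Without PAN+MP library 4 it was 11, and without PAN+MP library 1 it was 130. Leaving out PAN+Pio library 1, 2, 3 or 4 gave 6, 106, 19 and 24 genes. Without the tagged PAN+Pio library 3 and a tagged Sham library, 15 genes were called. On all libraries DESeq2 called 298 genes, which included all 108, and limma-voom called 52, of which 48 were shared. By the authors' deposited table, 235 genes differed between these drug groups, 149 higher under pioglitazone and 86 higher under methylprednisolone, and 105 of them were called here in the same direction. At the edge of the threshold, LOC680322, LOC100361083 and Ckap2l were the last genes inside, with adjusted p-values of 0.0498, 0.0482 and 0.0482. Krt36, Cit and Mthfd1l were the next outside, at 0.0505, 0.0515 and 0.0527.

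Each drug group was also set against the untreated disease group and against healthy glomeruli. Because the same PAN or Sham libraries enter both of a pair of such contrasts, their values are given side by side and their overlap is not. Against PAN, 628 genes (3.68%) were called for PAN+Pio, 142 higher (0.832%) and 486 lower (2.85%), and 1470 genes (8.62%) for PAN+MP, 564 higher (3.31%) and 906 lower (5.31%). Against Sham, 867 genes (5.08%) were called for PAN+Pio, 511 higher (3%) and 356 lower (2.09%), and 2167 (12.7%) for PAN+MP, 1020 higher (5.98%) and 1147 lower (6.72%). How far these counts differ was not tested, and the direct contrast is the test of a difference between the drugs.

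Genes of cell division were higher in PAN+Pio than in PAN+MP. On the list of DNA replication and mitosis, 13 of 38 tested members rose and none fell, beside 0.428% and 0.205% of all genes. The median log2 fold change was 0.82, beside 0.003 over all genes. At an unadjusted p under 0.05, 27 of the 38 passed, beside 8.68% of all genes. The libraries did not overlap for 19 members, in each case with PAN+Pio higher, beside 3.58% of all genes. Top2a, the topoisomerase that untangles chromosomes before they separate, stood at 30.7, 16, 36.5 and 33 CPM in PAN+Pio and at 12.6, 7.25, 6.50 and 7.46 CPM in PAN+MP. All 4 PAN+Pio libraries were above all 4 PAN+MP libraries, with PAN+Pio library 2 the lowest of its group and PAN+MP library 1 the highest of its own. Its log2 fold change was 1.78 ± 0.31 (SE), a 3.44-fold difference with an adjusted p of 0.0206 (edgeR). Mki67, which codes for the proliferation marker Ki-67, measured 43.3, 25.2, 43.3 and 38 CPM in PAN+Pio and 18.8, 11.2, 10.8 and 8.89 CPM in PAN+MP. These ranges were also separate, and the log2 fold change was 1.59 ± 0.28 (SE) with an adjusted p of 0.0207 (edgeR).

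Most of the called members act in the mitotic spindle, its checkpoint or the kinase that starts mitosis. Bub1b codes for BUBR1, which holds cells before anaphase until chromosomes are attached. It was at 6.31, 3.72, 6.77 and 6.93 CPM in PAN+Pio and 2.36, 1.56, 1.58 and 1.68 CPM in PAN+MP, with a log2 fold change of 1.73 ± 0.25 (SE) and the smallest p on the list (adjusted p = 0.0106, edgeR). Nusap1, a spindle protein, was at 8.93, 5.33, 8.40 and 9.92 CPM in PAN+Pio and 3.33, 1.68, 2.16 and 2.36 CPM in PAN+MP, and its log2 fold change was 1.78 ± 0.28 (SE). Tpx2, which targets Aurora A kinase to the spindle, differed less, at 14.7 ± 3.15 CPM in PAN+Pio and 7.80 ± 1.39 CPM in PAN+MP (SD, n = 4 each). The other called members were Prc1, Kif20a, Kif4a, Cenpf, Bub1, the cyclins Ccna2 and Ccnb2, and their kinase Cdk1, with log2 fold changes of 1.19 to 1.84. Members of the replication licensing complex were not called. Mcm2, Mcm3, Mcm4, Mcm5, Mcm6 and Mcm7 had log2 fold changes between −0.02 and 0.73, and Pcna, the sliding clamp of DNA polymerase, had 0.26. A direct test between mitotic and licensing genes was not made.

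Against PAN, both drug groups were low in the same list. In PAN+Pio 29 of the 38 members were lower than in PAN (2.85% of all genes were), with a median log2 fold change of −1.39. In PAN+MP 34 were lower (5.31% of all genes), with a median of −2.14. Against Sham, PAN+Pio had 2 members higher (3% of all genes were) and none lower (2.09%), with a median of 0.53. PAN+MP had 2 higher (5.98% of all genes) and 4 lower (6.72%), with a median of −0.32. For Top2a the means were 29 ± 9.04 CPM in PAN+Pio, 8.45 ± 2.80 in PAN+MP, 88.1 ± 23.5 in PAN and 16.2 ± 6.27 in Sham (SD, n = 4 each), so PAN+Pio lay between PAN and Sham and PAN+MP lay below Sham. The log2 fold change against Sham was 0.84 with an adjusted p of 0.108 for PAN+Pio and −0.95 with an adjusted p of 0.0524 for PAN+MP (edgeR). In whole glomeruli, fewer dividing cells and less of these RNAs per cell cannot be told apart, and the dividing cell type is not identified.

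**Figure D2:**
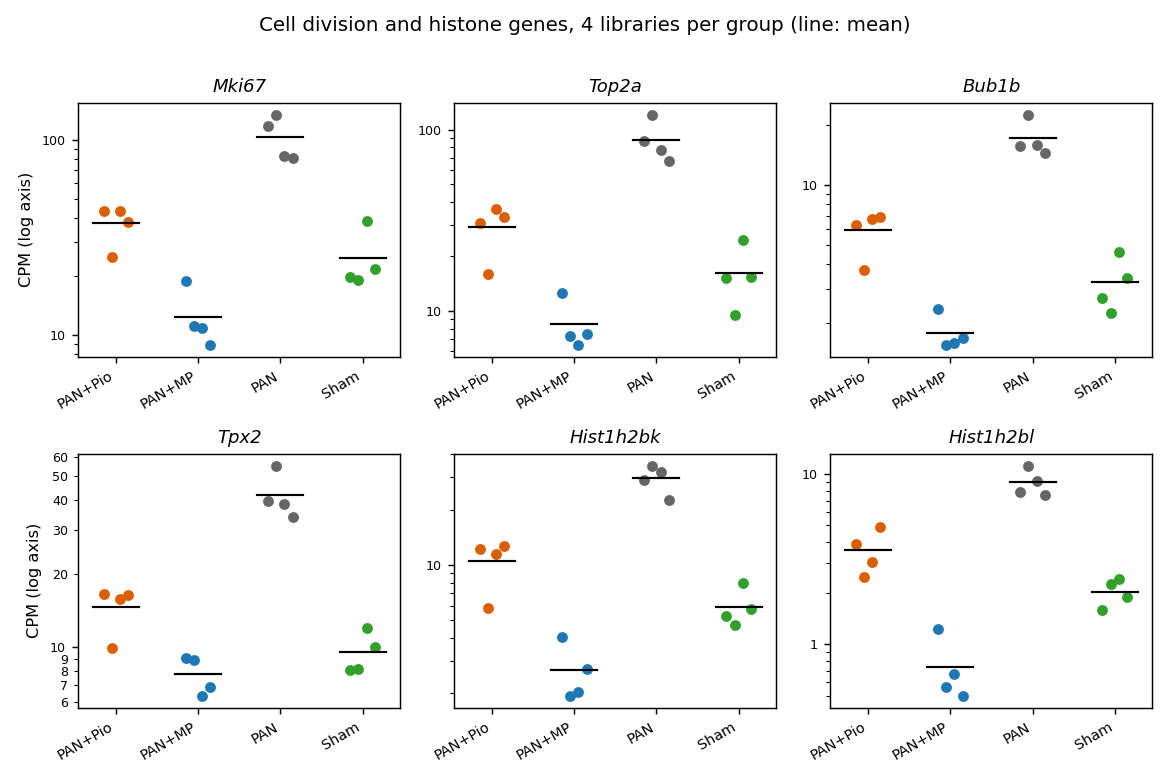
Levels of 4 mitotic genes and 2 histone genes in CPM on log axes, with 1 point per library and a line at the mean of each group. PAN+Pio libraries lie above PAN+MP libraries in every panel, PAN libraries lie highest, and PAN+Pio library 2 is the lowest PAN+Pio point in all 6 panels.

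Histone genes showed the same direction. Replication-dependent histones are made in S phase to package new DNA, and most of their mRNAs lack a poly(A) tail, which libraries from ribosome-depleted total RNA retain. A list of 32 tested genes with symbols from Hist1 to Hist4 was made after the calls had been seen. Of these, 11 were called higher in PAN+Pio (0.428% of all genes were) and none lower (0.205%). The list's median log2 fold change was 0.98. A further 5 called genes with LOC symbols carry histone names in RefSeq, and all 5 were higher as well. Among these 5, LOC100360754 has the RefSeq name Hist1h2ai, as does the called symbol Hist1h2ai, so RefSeq counts these as 1 gene. Hist1h2bl, an H2B gene with the smallest p of the whole comparison, was at 3.90, 2.49, 3.06 and 4.88 CPM in PAN+Pio and 1.23, 0.560, 0.666 and 0.497 CPM in PAN+MP. The ranges were separate, the log2 fold change was 2.29 ± 0.28 (SE) and the adjusted p was 0.00659 (edgeR). Hist1h2bk was at 12.1, 5.83, 11.5 and 12.6 CPM in PAN+Pio and 4.02, 1.93, 2.03 and 2.70 CPM in PAN+MP, with a log2 fold change of 1.98 ± 0.27 (SE). Hist1h2ak, an H2A gene, and LOC680498, an H3 gene in RefSeq, had log2 fold changes of 2.04 and 2.01. LOC680322, named H2ac12 in RefSeq, overlapped between the groups, because PAN+MP library 1 at 1.27 CPM exceeded PAN+Pio library 2 at 1.15 CPM. Histone genes are near-identical copies, so how reads were divided among them is uncertain, and single members are less certain than the group.

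The 12 leading genes in this direction also included genes on no list. Esco2 codes for an enzyme that locks cohesin onto replicated chromosomes, and it was at 3.85 ± 1.17 CPM in PAN+Pio and 0.934 ± 0.373 CPM in PAN+MP (SD, n = 4 each), a log2 fold change of 2.05 ± 0.37 (SE). Mxd3, of the MYC antagonist family, had a log2 fold change of 2.10 ± 0.37 (SE), and Parpbp, which restrains homologous recombination, had 1.95 ± 0.38 (SE). LOC100910554, which has no descriptive name in RefSeq, had 2.20 ± 0.37 (SE). These 4 genes were 3.86 to 4.58 times as high in PAN+Pio, and the libraries of none of them overlapped. A further 5 called genes on no list were named after their values were seen, and they were not tested as a group. Ttk and Kif2c, of chromosome attachment in mitosis, had log2 fold changes of 1.92 and 1.64, Pttg1, which codes for securin, 1.70, Ube2c, of the anaphase-promoting pathway, 1.66, and Aspm, of the spindle pole, 1.06.

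The count of mitosis genes called was 0 without PAN+MP library 2 or 3, 1 without PAN+MP library 4 and 14 without PAN+MP library 1. It was 1, 15, 2 and 2 without PAN+Pio library 1, 2, 3 and 4. For histone symbols the count was 0 without PAN+MP library 2 or 3, 13 without library 1 and 3 without library 4. It was 2, 15, 4 and 4 without PAN+Pio library 1, 2, 3 and 4. The median log2 fold change stayed between 0.76 and 0.98 for the mitosis list and between 0.86 and 1.16 for histone symbols over these 8 omissions.

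Because these genes moved together, their promoters were read, each as the 250 bases before and 50 after the first listed start in RefSeq (build GRCr8, a newer build than the Rnor_6.0 of the counts). CCAAT is the box bound by NF-Y, and TTTGAA is the core of the cell cycle homology region, through which the MuvB complexes time mitotic genes. These motifs, and CACGTG and TTATGNAA further on, were added after the calls had been seen. Shown are promoters of 3 called mitotic genes, with every CCAAT and TTTGAA in capitals on either strand (ATTGG and TTCAAA on the reverse strand).
Ccnb2: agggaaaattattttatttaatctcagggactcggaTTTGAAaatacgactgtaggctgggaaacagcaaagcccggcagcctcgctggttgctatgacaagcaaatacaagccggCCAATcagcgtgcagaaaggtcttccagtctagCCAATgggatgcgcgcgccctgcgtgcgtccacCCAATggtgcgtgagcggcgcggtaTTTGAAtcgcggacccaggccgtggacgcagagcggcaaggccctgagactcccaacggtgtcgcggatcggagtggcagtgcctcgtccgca
Cdk1: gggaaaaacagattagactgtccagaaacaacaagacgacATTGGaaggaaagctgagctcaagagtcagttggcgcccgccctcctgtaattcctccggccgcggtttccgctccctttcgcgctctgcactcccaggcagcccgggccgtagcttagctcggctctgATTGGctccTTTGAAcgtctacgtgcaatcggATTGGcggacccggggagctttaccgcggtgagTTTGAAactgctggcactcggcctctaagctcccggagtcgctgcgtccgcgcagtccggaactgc
Top2a: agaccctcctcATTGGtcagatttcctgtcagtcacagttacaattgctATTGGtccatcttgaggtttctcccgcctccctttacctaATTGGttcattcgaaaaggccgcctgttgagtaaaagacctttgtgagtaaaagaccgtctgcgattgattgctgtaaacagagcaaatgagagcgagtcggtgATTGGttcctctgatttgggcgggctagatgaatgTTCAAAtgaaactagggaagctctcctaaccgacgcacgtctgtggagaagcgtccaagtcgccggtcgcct
Ccnb2 lies at chr8:79981609-79981908 on the minus strand, Cdk1 at chr20:19265043-19265342 on the plus strand and Top2a at chr10:84473044-84473343 on the minus strand, all in GRCr8. In Ccnb2 the CCAAT boxes begin 134, 101 and 68 bases before the start and the nearest TTTGAA 43 bases before it. In Cdk1 the nearest TTTGAA begins 16 bases before the start, and in Top2a 22 bases before it. Both motifs together were in 26 of 55 promoters found for genes higher in PAN+Pio (47.3%) and in 1 of 24 for genes lower (4.17%). The share was 5.32% of promoters of all tested genes and 7.25% of all 27457 promoters. Alone, CCAAT was in 70.9% and TTTGAA in 56.4% of the promoters of genes higher in PAN+Pio, against 37.8% and 12.6% of promoters of all tested genes and 37.7% and 18.1% of all promoters. A match is a string of letters and was not shown to be a site.

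Clock genes differed in both directions. On a list of the circadian clock and its output, 2 of 19 tested members rose in PAN+Pio relative to PAN+MP (0.428% of all genes). Another 5 fell (0.205%), and 16 passed at an unadjusted p under 0.05, beside 8.68% of all genes. The libraries did not overlap for 16 members, 4 higher (3.58% of all genes) and 12 lower (3.39%) in PAN+Pio. Arntl, which codes for the activator BMAL1, was at 82.8, 95.2, 55 and 49.1 CPM in PAN+Pio and at 17.9, 8.30, 11.6 and 11.9 CPM in PAN+MP. The lowest PAN+Pio library was above the highest PAN+MP library, the log2 fold change was 2.51 ± 0.46 (SE), a 5.68-fold difference, and the adjusted p was 0.0268 (edgeR). Clock, its partner, was at 228, 232, 239.5 and 207 CPM in PAN+Pio and 175, 156, 179 and 165 CPM in PAN+MP, a smaller but separate difference with a log2 fold change of 0.43 ± 0.09 (SE). Npas2, the alternative partner, was at 13.3, 18.2, 7.05 and 7.27 CPM in PAN+Pio and 3.99, 1.59, 1.08 and 0.746 CPM in PAN+MP. Its groups were separate and its log2 fold change was 2.64 ± 0.62 (SE), but its adjusted p of 0.0674 (edgeR) missed the threshold.

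The repressors of the loop went the other way. Per2 was at 29.2, 33.6, 36.8 and 48 CPM in PAN+Pio and 112, 144, 149 and 121 CPM in PAN+MP. No library overlapped, and the log2 fold change was −1.83 ± 0.31 (SE) with an adjusted p of 0.0187 (edgeR). Per3 was at 27.7, 39, 45.4 and 62.9 CPM in PAN+Pio and 119.8, 167, 142 and 111 CPM in PAN+MP, with a log2 fold change of −1.63 ± 0.31 (SE). Cry1 was at 6.94, 7.29, 3.91 and 7.19 CPM in PAN+Pio and 15.6, 19.1, 21 and 27.9 CPM in PAN+MP, with a log2 fold change of −1.72 ± 0.36 (SE). Cry2, the other cryptochrome repressor, was at 36.1, 40.2, 31.4 and 43.7 CPM in PAN+Pio and 60.4, 72.4, 64.5 and 73.5 CPM in PAN+MP and had a log2 fold change of −0.84 ± 0.14 (SE). Per1, a textbook target of both the clock and the glucocorticoid receptor, had overlapping groups, at 34.3, 34.4, 117 and 45.7 CPM in PAN+Pio and 56.1, 81.9, 165 and 112 CPM in PAN+MP. PAN+Pio library 3 was far above the other PAN+Pio libraries there, and the log2 fold change was −0.84 ± 0.47 (SE) with an adjusted p of 0.678 (edgeR).

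Tef and Dbp are output genes of the PAR bZIP family, transcription factors that carry clock timing to metabolic genes. Tef was at 41.3, 47.5, 75.5 and 92.1 CPM in PAN+Pio and 209.6, 252, 236 and 231 CPM in PAN+MP, with a log2 fold change of −1.86 ± 0.34 (SE) and an adjusted p of 0.0252 (edgeR). Dbp was at 19.2, 24.6, 66.5 and 71.7 CPM in PAN+Pio and 164, 229, 133 and 108 CPM in PAN+MP, and although the groups were separate its adjusted p was 0.0875 (edgeR). Nr1d1, which codes for the repressor REV-ERB alpha, was higher in PAN+Pio in all 4 libraries without passing the test. It was at 61.6, 73, 72.6 and 87.1 CPM in PAN+Pio and 51.6, 56.1, 35.8 and 34.8 CPM in PAN+MP, with a log2 fold change of 0.72 ± 0.46 (SE) and an adjusted p of 0.736 (edgeR). Rora, an activator of Arntl, had a log2 fold change of 0.02 ± 0.12 (SE), with a 95% interval of −0.24 to 0.27.

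**Figure D3:**
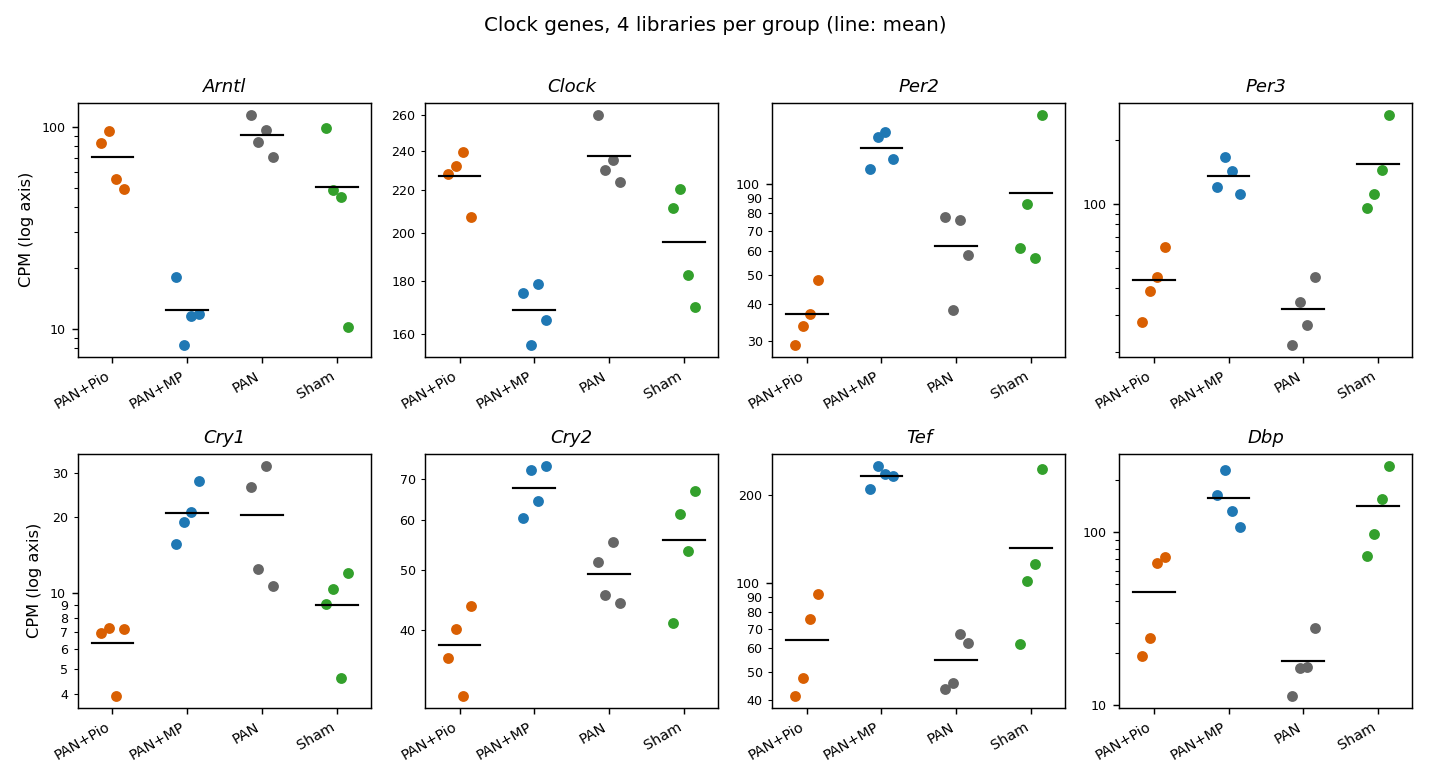
Levels of 8 clock genes in CPM on log axes, with 1 point per library and a line at the mean of each group. PAN+Pio and PAN+MP libraries are separate in every panel, with PAN+Pio higher for Arntl and Clock and lower for the other 6 genes, and Sham libraries of Arntl spread from 10.2 to 98.5 CPM.

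Against the untreated groups, PAN+MP was the group whose Arntl stood apart from PAN. Its log2 fold change against PAN was −2.88 (adjusted p = 0.000838, edgeR), and that of PAN+Pio was −0.37 (adjusted p = 0.769). For Per3 the values against PAN were 0.45 in PAN+Pio and 2.08 in PAN+MP, and for Tef they were 0.23 in PAN+Pio and 2.08 in PAN+MP. Cry1 went differently, with −1.69 in PAN+Pio and 0.03 in PAN+MP. Healthy rats varied widely among themselves. The 4 Sham libraries had 98.5, 48.5, 45.1 and 10.2 CPM of Arntl and 61.1, 85.6, 56.9 and 170.3 CPM of Per2, and the library lowest in Arntl was the highest in Per2, Per3, Tef and Dbp. Clock RNAs swing with the time of day, and since the hour of collection is not given, its part in the difference between the drugs was not tested.

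The count of clock genes called was 7 without PAN+MP library 1 and 0 without PAN+MP library 2, 3 or 4. It was 0 without PAN+Pio library 1 or 3, 3 without library 2 and 4 without library 4. DESeq2 called 13 and limma-voom 4. The median log2 fold change over the 19 members lay between −0.89 and −0.77 over the 8 omissions.

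Promoters of 3 clock genes are shown for their known elements. CACGTG is the E-box bound by BMAL1 with its partner, TTATGNAA is a form of the D-box bound by PAR bZIP proteins, and AGGTCA is the hexamer shared by many nuclear receptors, the ROR and REV-ERB families included. Capitals mark CACGTG in Tef, TTATGNAA in Per2 and AGGTCA in Arntl, and CCAAT matches are left in lower case here.
Tef: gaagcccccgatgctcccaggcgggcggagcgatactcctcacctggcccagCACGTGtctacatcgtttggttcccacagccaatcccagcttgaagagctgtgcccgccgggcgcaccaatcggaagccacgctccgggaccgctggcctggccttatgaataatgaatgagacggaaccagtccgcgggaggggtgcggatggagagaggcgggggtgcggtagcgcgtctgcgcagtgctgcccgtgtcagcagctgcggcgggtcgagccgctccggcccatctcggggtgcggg
Per2: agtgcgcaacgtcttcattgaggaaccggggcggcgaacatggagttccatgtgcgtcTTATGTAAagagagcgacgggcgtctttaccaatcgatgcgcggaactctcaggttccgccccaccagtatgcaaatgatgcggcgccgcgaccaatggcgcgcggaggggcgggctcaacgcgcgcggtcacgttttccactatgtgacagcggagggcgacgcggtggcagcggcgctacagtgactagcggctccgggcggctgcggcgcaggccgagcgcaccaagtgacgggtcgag
Arntl: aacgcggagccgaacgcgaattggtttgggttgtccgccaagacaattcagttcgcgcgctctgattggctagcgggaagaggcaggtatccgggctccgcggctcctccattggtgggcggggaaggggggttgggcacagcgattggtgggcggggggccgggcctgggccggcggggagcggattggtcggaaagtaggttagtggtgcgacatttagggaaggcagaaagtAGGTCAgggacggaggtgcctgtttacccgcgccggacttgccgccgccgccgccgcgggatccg
Tef lies at chr7:115206577-115206876 on the plus strand, Per2 at chr9:99496944-99497243 on the minus strand and Arntl, named Bmal1 in RefSeq, at chr1:176766078-176766377 on the plus strand of GRCr8. The E-box of Tef begins 198 bases before the start, the D-box match of Per2 192 bases before it, and the hexamer of Arntl 15 bases before it. CACGTG was in 23.5% of the 17 promoters found for the clock list, in 1 of 55 promoters for genes higher in PAN+Pio (1.82%) and in 2 of 24 for genes lower (8.33%). The share was 8.89% of promoters of all tested genes and 6.65% of all promoters, so the share for genes lower was near that of all tested genes. TTATGNAA was in 1 of the 17 clock promoters (5.88%), in 3.64% for genes higher and in 3 of 24 for genes lower (12.5%), against 1.96% of all tested genes. AGGTCA is a common string, in 17.6% of the clock promoters, 18.2% for genes higher and 8.33% for genes lower, against 12.3% of all tested genes. ACANNNTGT, the core of the glucocorticoid response element, was in 1 promoter of each set, 1.82% for genes higher in PAN+Pio and 4.17% for genes lower, against 3.92% of promoters of all tested genes and 6.6% of all promoters. The PPAR element, AGGTCA repeated with 1 base between the copies, was in none of the promoters of called genes, in 3 of 11981 promoters of all tested genes and in 16 of all 27457. These windows are short, and the letters say nothing of binding elsewhere.

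Several leading genes lower in PAN+Pio lie outside the core clock. Wee1, the kinase that holds CDK1 inactive before mitosis and a clock output in mouse liver, was at 15, 14.5, 15 and 16.7 CPM in PAN+Pio and 36.7, 45.7, 52.5 and 43.2 CPM in PAN+MP. The 4 PAN+Pio libraries were tightly grouped below all PAN+MP libraries, with a log2 fold change of −1.54 ± 0.25 (SE) and an adjusted p of 0.0187 (edgeR). F3, tissue factor, which starts blood clotting, was at 19.9, 28.1, 21.8 and 28.9 CPM in PAN+Pio and 72.5, 109, 97.5 and 126 CPM in PAN+MP. The log2 fold change of F3 was −2.04 ± 0.41 (SE), and against PAN it was −0.24 in PAN+Pio and 1.80 in PAN+MP. Epm2a codes for laforin, a phosphatase of glycogen. It was at 1.87, 1.92, 3.18 and 3.26 CPM in PAN+Pio and 7.75, 9.58, 7.99 and 7.92 CPM in PAN+MP, a log2 fold change of −1.70 ± 0.33 (SE).

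The widest fold changes in this direction were in genes of low level. Aldh3a1, an aldehyde dehydrogenase, was at 0.125, 0.0767, 0.245 and 0.151 CPM in PAN+Pio and 0.761, 1.18, 2.25 and 1.77 CPM in PAN+MP, with a log2 fold change of −3.29 ± 0.63 (SE). Lrtm2, a leucine-rich repeat membrane protein, was at 0.125, 0.115, 0.530 and 0.606 CPM in PAN+Pio and 1.81, 3.14, 2.22 and 5.38 CPM in PAN+MP, with a log2 fold change of −3.17 ± 0.62 (SE). In both genes PAN+MP was the group apart: against PAN the log2 fold change was −1.05 in PAN+Pio and 2.24 in PAN+MP for Aldh3a1, and 0.25 in PAN+Pio and 3.42 in PAN+MP for Lrtm2. Art3, of the ADP-ribosyltransferase family, was at 1.63 ± 0.736 CPM in PAN+Pio and 6.80 ± 1.39 CPM in PAN+MP (SD, n = 4 each). Arg1, the urea cycle enzyme arginase 1, had a log2 fold change of −2.01 ± 0.49 (SE) with separate groups, but its adjusted p was 0.0782 (edgeR). LOC102553942, which was not matched to RefSeq, was at 5.90, 5.83, 4.69 and 5.49 CPM in PAN+Pio and 12.5, 14.8, 14.7 and 13.3 CPM in PAN+MP, with the smallest p of the genes lower in PAN+Pio (adjusted p = 0.00659, edgeR).

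Among the genes higher in PAN+Pio, those at the top of the fold changes were low in level. LOC103691628, unmatched in RefSeq, was at 1.62, 1.54, 0.734 and 1.59 CPM in PAN+Pio and 0.145, 0.0311, 0.0317 and 0.0932 CPM in PAN+MP, with a log2 fold change of 4.14 ± 0.73 (SE). LOC100911740 is named Mrln in RefSeq, the gene of myoregulin, a micropeptide that inhibits the calcium pump of muscle. It was at 4.03, 3.30, 3.59 and 2.46 CPM in PAN+Pio and 0.471, 0.435, 0.380 and 0.373 CPM in PAN+MP, with a log2 fold change of 3.0 ± 0.41 (SE) and an adjusted p of 0.00659 (edgeR). Its PAN mean was 1.49 ± 0.169 CPM and its Sham mean 1.93 ± 1.17 CPM, between the drug groups. Cd93, an endothelial surface receptor named here after its values were seen, was at 156, 170.0, 241 and 163 CPM in PAN+Pio and 75.5, 63.5, 66.8 and 99.7 CPM in PAN+MP, with a log2 fold change of 1.26 ± 0.27 (SE).

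Genes of the glomerular matrix, the subject of the study, gave no calls in the structural lists. Of 39 tested collagens and interstitial matrix genes and 20 basement membrane genes none was called (edgeR), with 3 and 5 at an unadjusted p under 0.05, 1 and 0 called by DESeq2 and none by limma-voom. Their median log2 fold changes were 0.12 and 0.16. The 95% intervals lay within 2-fold for 28 of the 39 and 18 of the 20, beside 79.8% of all genes. Of the 20 basement membrane genes, 16 had a positive log2 fold change, beside 8663 of all 17061 genes. In 6 of the 20 every PAN+Pio library was above every PAN+MP library, beside 3.58% of all genes, and in 0 every one was below, beside 3.39%. Among them, given after their values were seen, were the type IV collagen chains Col4a1 and Col4a2, the laminin chain Lamc1, nidogen Nid2 and peroxidasin Pxdn, with log2 fold changes of 0.56, 0.54, 0.27, 0.37 and 0.18. The summed level of the 20 genes was 8077, 7599, 8613 and 7700 CPM in PAN+Pio and 7026, 6569, 6704 and 7207 CPM in PAN+MP. The groups were separate in this sum, which ran from 7907 to 10390 CPM in PAN and from 6834 to 8624 CPM in Sham. Col4a1, a chain of type IV collagen, was at 1212, 1225, 1308 and 1043 CPM in PAN+Pio and 926, 707, 749 and 856 CPM in PAN+MP. The groups were separate, the log2 fold change was 0.56 ± 0.18 (SE) and the adjusted p was 0.257 (edgeR). Thbs2, a matricellular protein that checks angiogenesis, was at 65.7, 57.4, 60.9 and 66.8 CPM in PAN+Pio and 38.3, 26.4, 29.6 and 43.6 CPM in PAN+MP, with a log2 fold change of 0.86 ± 0.22 (SE) and an adjusted p of 0.0943 (edgeR). Fn1, fibronectin, was at 318 ± 74.3 CPM in PAN+Pio and 306 ± 48.5 CPM in PAN+MP (SD, n = 4 each), with a log2 fold change of 0.06 ± 0.23 (SE). Col1a1 varied widely within both groups, at 166, 75.8, 144 and 269.5 CPM in PAN+Pio and 158, 77.6, 49.8 and 98.1 CPM in PAN+MP, and the 95% interval of its log2 fold change ran from −0.35 to 1.90.

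On the lists of matrix remodelling and TGF beta signalling, 1 gene each was called. Among 45 genes of matrix remodelling, 1 was called higher (0.428% of all genes were), and the list's median log2 fold change was 0.02. The called member was Mmp15, a membrane-bound metalloproteinase. It was at 87.7, 81.5, 60.1 and 76.6 CPM in PAN+Pio and 37.5, 27.3, 26.4 and 15.7 CPM in PAN+MP. Every PAN+Pio library was above every PAN+MP library, the log2 fold change was 1.52 ± 0.28 (SE) and the adjusted p was 0.0261 (edgeR). Against PAN it was −0.03 in PAN+Pio and −1.55 in PAN+MP. Among 27 genes of TGF beta signalling, 1 was called lower (0.205% of all genes were), and the list's median log2 fold change was 0. The called member was Tgfbr3, betaglycan, a co-receptor of TGF beta. It was at 149, 175, 214 and 173 CPM in PAN+Pio and 295, 359, 371 and 285 CPM in PAN+MP. Its log2 fold change was −0.88 ± 0.15 (SE) with an adjusted p of 0.0187 (edgeR), and against Sham it was −0.47 in PAN+Pio and 0.42 in PAN+MP. Col13a1, a transmembrane collagen outside the lists, was at 10.8, 11.1, 10.6 and 12.2 CPM in PAN+Pio and 13.7, 27.1, 22.2 and 42.8 CPM in PAN+MP, with a log2 fold change of −1.24 ± 0.27 (SE).

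Podocyte identity genes gave no calls between the drugs. None of 40 tested podocyte identity genes was called (edgeR), with 3 at an unadjusted p under 0.05, 1 called by DESeq2 and 0 by limma-voom. The 95% interval lay within 2-fold for 39 of the 40 (97.5%), beside 79.8% of all genes. Nphs1 had a log2 fold change of 0.01 ± 0.17 (SE), Podxl, the surface sialomucin podocalyxin, −0.01 ± 0.18 (SE), and Wt1, a podocyte transcription factor, 0.03 ± 0.17 (SE). Magi2, a scaffold of the slit diaphragm, was at 148 ± 27.6 CPM in PAN+Pio and 143 ± 26.8 CPM in PAN+MP, beside 101 ± 28.8 CPM in PAN and 547 ± 106 CPM in Sham (SD, n = 4 each). Between the drugs the log2 fold change was 0.05 ± 0.20 (SE), with a 95% interval of −0.38 to 0.47. Des, desmin, a filament protein used as a sign of podocyte injury, was at 327 ± 36.9 CPM in PAN+Pio and 327 ± 56.7 CPM in PAN+MP (SD, n = 4 each), with a log2 fold change of 0.00 ± 0.20 (SE) and a 95% interval of −0.43 to 0.43. Against PAN, Des fell by 1.49 on the log2 scale in PAN+Pio and by 1.49 in PAN+MP. Desmin does not stand for all injury genes. Of 31 tested genes of podocyte cytoskeleton and injury, 0 were called by edgeR, DESeq2 or limma-voom. Among them 5 passed at an unadjusted p under 0.05, beside 8.68% of all genes. Their median log2 fold change was 0.14, with 22 of the 31 above 0 and a range of −0.38 to 2.02.

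Among targets of the drugs' own receptors, 1 gene was called. Of 36 tested glucocorticoid receptor targets, 1 was called lower in PAN+Pio (0.205% of all genes were) and none higher (0.428%). That member was Per2, which is also on the clock list. At an unadjusted p under 0.05, 6 of the 36 passed, beside 8.68% of all genes, and DESeq2 called 2 and limma-voom 1. That call was lost without PAN+MP library 2, 3 or 4 and without PAN+Pio library 1 or 3. Of the 36, 8 had a positive log2 fold change, beside 8663 of all 17061 genes. The median log2 fold change was −0.26 and became 0.03 without PAN+MP library 4. Fkbp5, which codes for the chaperone FKBP51 and is a sensitive glucocorticoid target, was at 24.6, 50.3, 40.9 and 39.2 CPM in PAN+Pio and 22.4, 29.3, 31.1 and 210 CPM in PAN+MP. PAN+MP library 4 was far above every other library, and the other 3 PAN+MP libraries lay below all PAN+Pio libraries but library 1. The log2 fold change was −0.92 ± 0.59 (SE), and without PAN+MP library 4 it was 0.49. Tsc22d3, which codes for the glucocorticoid-induced leucine zipper, was at 110.1, 109.5, 161 and 133 CPM in PAN+Pio and 155, 164, 227 and 342 CPM in PAN+MP, with overlapping groups and an adjusted p of 0.410 (edgeR). Nr3c1 itself was at 352 ± 11.3 CPM in PAN+Pio and 370.4 ± 14.4 CPM in PAN+MP (SD, n = 4 each), and the 95% interval of its log2 fold change ran from −0.22 to 0.08. Sgk1, a kinase gene raised by corticosteroids, had a log2 fold change of 0.29 ± 0.18 (SE), Klf9 −0.21 ± 0.10 (SE) and Zbtb16 −0.42 ± 0.79 (SE), and none was called.

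PPAR gamma targets and lipid droplet genes gave 0 calls among 41 tested (edgeR) and 0 by DESeq2 or limma-voom. At an unadjusted p under 0.05, 6 of the 41 passed, beside 8.68% of all genes. The median log2 fold change was −0.08, or 0.07 without PAN+MP library 4, and the 95% interval lay within 2-fold for 24 of the 41. Pparg was low, at 0.955, 0.614, 1.34 and 1.55 CPM in PAN+Pio and 1.70, 0.622, 0.792 and 1.74 CPM in PAN+MP, with overlapping groups. Fabp4, a fatty acid carrier and a marker of PPAR gamma activity in fat, was at 0.166, 0.537, 1.79 and 0.416 CPM in PAN+Pio and 0.181, 0.373, 0.190 and 0.746 CPM in PAN+MP. PAN+Pio library 3 alone was above 1 CPM, and the adjusted p was 0.788 (edgeR). Angptl4, an inhibitor of lipoprotein lipase, was at 0.748, 1.80, 2.32 and 0.606 CPM in PAN+Pio and 1.23, 2.15, 1.62 and 6.62 CPM in PAN+MP. The high value was again PAN+MP library 4, and against PAN the log2 fold change was −1.94 in PAN+Pio and −0.85 in PAN+MP. Cpt1b, the muscle form of the enzyme that admits fatty acids to mitochondria, had the smallest p of the list. It was at 26.2, 20.1, 24 and 17.8 CPM in PAN+Pio and 12.9, 19.8, 8.65 and 10.9 CPM in PAN+MP, with an adjusted p of 0.270 (edgeR). Cd36, Plin2, Pdk4 and Cidea, of fatty acid uptake, droplet coat, fuel choice and droplet growth, had log2 fold changes of −0.44, 0.02, −0.19 and 0.08. Plin1 and Ucp1, markers of fat, were too low to test, with 5 and 0 counts in all PAN+Pio libraries and 5 and 1 in all PAN+MP libraries.

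Genes of fatty acid oxidation and respiration gave no calls. Of 32 tested genes of mitochondrial and peroxisomal fatty acid oxidation, 0 were called (edgeR), with 4 at an unadjusted p under 0.05 and 0 called by DESeq2 or limma-voom. Of 29 oxidative phosphorylation genes 0 were called by any of the 3 tools and 0 passed at an unadjusted p under 0.05. All 29 had a 95% interval within 2-fold.

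**Figure D4:**
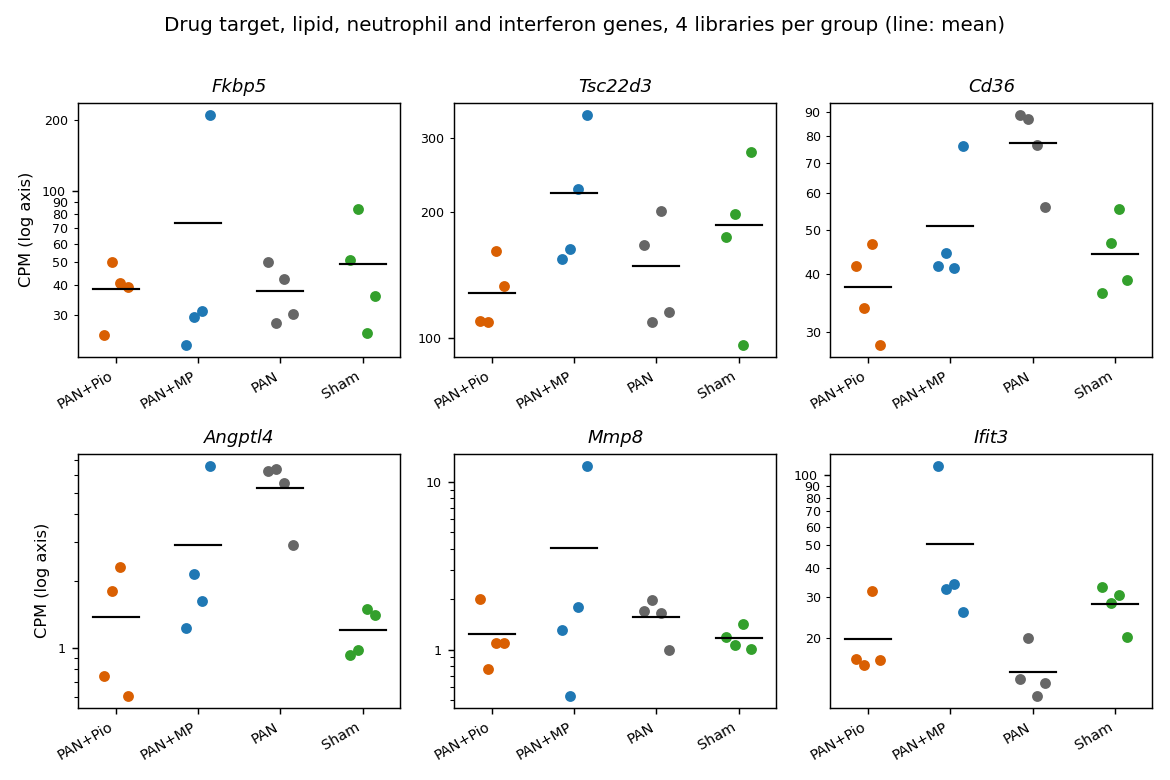
Levels of 6 genes in CPM on log axes, with 1 point per library and a line at the mean of each group. PAN+MP library 4 is the highest PAN+MP point for Fkbp5, Tsc22d3, Cd36, Angptl4 and Mmp8, and PAN+MP library 1 is the highest for Ifit3. In all 6 panels the remaining PAN+MP libraries overlap the PAN+Pio range.

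Immune markers were high in single libraries. Of 7 tested neutrophil and mast cell genes 0 were called (edgeR, DESeq2 and limma-voom), with 4 at an unadjusted p under 0.05 and a median log2 fold change of −1.12. Their summed level was 25.0 to 30.7 CPM in PAN+Pio and 23.3 to 79.7 CPM in PAN+MP, with the highest value in library 4, and without that library the median was 0.11. Mmp8, neutrophil collagenase, was at 1.99, 0.767, 1.10 and 1.10 CPM in PAN+Pio and 1.30, 0.529, 1.81 and 12.5 CPM in PAN+MP. The interferon list had a median of −0.40 over 34 genes with 33 below 0, and 0 were called (edgeR), with 7 at an unadjusted p under 0.05, 1 by DESeq2 and 0 by limma-voom. Its summed level was 1204 to 1625 CPM in PAN+Pio and 1161 to 2840 CPM in PAN+MP, where library 1 was highest, and without that library the median was −0.06. Ifit3, an interferon-induced antiviral gene, was at 16.3, 15.4, 31.8 and 16.2 CPM in PAN+Pio and 110, 32.4, 34 and 25.8 CPM in PAN+MP.

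Macrophage genes gave 0 calls among 25 by any of the 3 tools and none at an unadjusted p under 0.05, with a median of −0.19. Cd68, a macrophage lysosomal protein, was at 6.16 ± 1.05 CPM in PAN+Pio and 7.61 ± 2.25 CPM in PAN+MP (SD, n = 4 each). Cd163, a receptor of macrophages, was too low to test, with 3 counts in all PAN+Pio libraries and 12 in all PAN+MP libraries. Ccl2, a monocyte chemokine, was at 2.95, 1.53, 3.10 and 2.92 CPM in PAN+Pio and 1.52, 1.59, 1.55 and 1.18 CPM in PAN+MP, with an adjusted p of 0.296 (edgeR). The 24 proximal tubule genes gave 0 calls by any tool and none at an unadjusted p under 0.05, with a median of −0.04. With their score as a covariate, 213 genes were called in place of 108, the 108 among them. Ptger1, a prostaglandin receptor listed with the collecting duct, was at 26.6, 33.7, 30.3 and 36.3 CPM in PAN+Pio and 64.9, 80.7, 66.2 and 71.2 CPM in PAN+MP. Its groups were separate, with a log2 fold change of −1.16 ± 0.26 (SE) and an adjusted p of 0.0605 (edgeR), and DESeq2 and limma-voom each called 1 gene of that list.

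Of the 37 lists, 32 held no called gene (edgeR). On these 32, 0 to 7 genes a list passed at an unadjusted p under 0.05, DESeq2 called 0 or 1 a list, and limma-voom called 0 except for 1 on the collecting duct list. For further lists and for the podocyte injury list, the member with the smallest p is given by its log2 fold change. Aplnr, the endothelial apelin receptor, had 0.86 ± 0.23 (SE), Bbc3, a p53 target that promotes cell death, 0.87 ± 0.22 (SE), Tubb6, a tubulin listed with podocyte injury, 0.71 ± 0.21 (SE), Nr3c2, the mineralocorticoid receptor, −0.27 ± 0.09 (SE), and Nqo1, an NRF2 target, −0.60 ± 0.19 (SE). Their adjusted p-values were 0.133, 0.106, 0.207, 0.268 and 0.269 (edgeR), so none was called. Of the glomerular endothelial list 1 of 24 genes passed at an unadjusted p under 0.05 and DESeq2 called 1, and of the 20 mesangial genes 2 passed and DESeq2 called 0, with limma-voom at 0 for both.

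Further members with the smallest p of their lists had adjusted p-values of 0.322 to 0.872 (edgeR). They were Epb42 of red cells, Jun of the immediate early response, Vim of kidney injury, Rps14 of the ribosome, C2 of complement, Ppargc1a of the PPAR coregulators, Stard4 of cholesterol handling, Cpt2 of fatty acid oxidation, Agtr1b of the angiotensin system, Lyz2 of macrophages, RT1-DOb of MHC class II, Atf3 of ER stress, Cd24 of parietal cells, Il7r of lymphocytes and Pck1 of the proximal tubule. Other genes followed for the study's questions had log2 fold changes of 0.42 ± 0.19 (SE) for the smooth muscle actin gene Acta2, 0.18 ± 0.37 (SE) for Col3a1, −0.01 ± 0.41 (SE) for tenascin C, −0.23 ± 0.11 (SE) for Timp1, 0.46 ± 0.15 (SE) for Mmp2, −0.11 ± 0.23 (SE) for complement C3 and 0.42 ± 0.40 (SE) for the T cell gene Cd3e, none called. Cpt1a, of fatty acid oxidation, had −0.52 ± 0.20 (SE). Cdkn1a, which codes for the cell cycle inhibitor p21, was at 13.2 ± 3.70 CPM in PAN+Pio and 11.7 ± 1.61 CPM in PAN+MP, beside 41.5 ± 7.56 CPM in PAN (SD, n = 4 each). Its log2 fold change between the drugs was 0.17 ± 0.22 (SE).

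**Figure D5:**
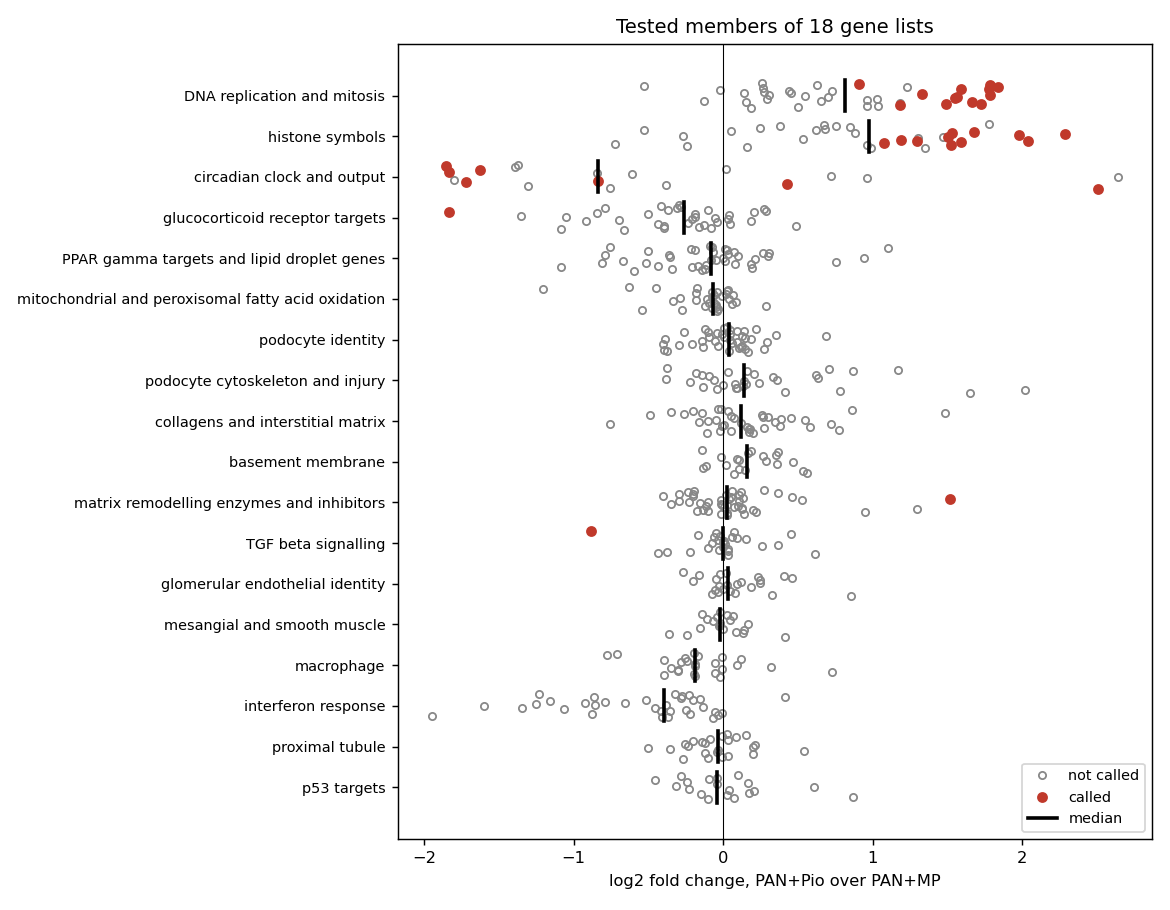
Each circle is a tested member of 1 of 18 lists, placed by its log2 fold change of PAN+Pio over PAN+MP, with called genes in red and a bar at the list's median. The mitosis list and the histone symbols lie to the right with medians of 0.82 and 0.98, the clock list is split with a median of −0.84, and the podocyte identity, interstitial matrix, basement membrane and PPAR gamma target lists hold no called gene, with medians of 0.04, 0.12, 0.16 and −0.08.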

How the data were processed

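RNA of isolated glomeruli was made into directional libraries from 350 ng of total RNA after depletion of ribosomal and globin transcripts, per the labels' protocols. The submitters' processing notes name cutadapt, STAR, HTSeq 0.6.1p1, DESeq2 and the build Rnor_6.0. The gene annotation release is not given in the sources used here. Per the file headers, the deposited table holds raw counts of 36351 genes in 16 libraries. The authors' deposited log2 fold change and adjusted p-value for the drugs, methylprednisolone over pioglitazone, served to count shared calls. Another 16 per-sample columns were not used.

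Column names gave each library's group and carry no replicate numbers. The series' design states 4 rats, read here as 4 per group. The p-values rest on the spread between libraries within groups, estimated over all 4 groups together, PAN and Sham included. In R 4.3.3, filterByExpr (minimum count 10) left 17061 genes. edgeR 4.0.16 fitted 1 term per group to all 16 libraries with TMM factors (0.952 to 1.05) and 12 residual degrees of freedom, and glmQLFTest contrasted PAN+Pio with PAN+MP. P-values were adjusted by the Benjamini-Hochberg method across all genes that passed the filter. The SE is the size of the log2 fold change over the square root of F. The fit was checked on simulated data. Replicate pairs varied by at least 11.2 times the counting variance, so no library was a copy of another.

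Alternatives were DESeq2's size factors, no filter, the DESeq2 1.42.0 Wald test, limma-voom (limma 3.58.1), the 8 drug libraries alone, each library left out, the tagged libraries left out, a tubule score as covariate, a 2-fold minimum and an adjusted p under 0.1. The comparison, the 37 lists and the genes followed were chosen with earlier results of these data known. Genes named are the 12 with the largest change per direction among called genes with a mean of at least 1 CPM in the higher group, up to 4 called members per list or else the member with the smallest p, a set of genes named whatever their values (drug targets, podocyte, matrix and immune genes), and 3 genes on either side of the threshold. Some genes this rule names are not reported here. Further mitosis and clock members, called genes on no list, separate basement membrane genes and Cd93 were named after their values were seen. RefSeq (GRCr8) matched 101 of the 108 called symbols. Its build differs from that of the counts, so it gave names and promoters only, with the first listed promoter per gene read on both strands.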

Additional observations from a re-analysis of the deposited data

Results flagged for a closer look

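Among 95 named genes, 190 groups of 4 libraries were checked for a library far from the others, and 24 groups had one. The critical value used would flag about 5% of groups if values were independent and normally distributed. These genes share their libraries and many were selected by their values, so 24 of 190 cannot be tested against that share. PAN+MP library 4 and PAN+Pio library 3 were far from the others in 6 genes each, PAN+Pio library 2 and PAN+MP library 1 in 5 each, and PAN+Pio library 1 and PAN+MP library 2 in 1 each. What sets these libraries apart was not tested.

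PAN+MP library 4 was far above the others for Fkbp5 at 210 CPM, Cd36 at 76.1 CPM, Mmp8 at 12.5 CPM, Angptl4 at 6.62 CPM and Il7r at 4.04 CPM, and far below them for Ccl2 at 1.18 CPM. PAN+MP library 1 was far above the others for Ifit3 at 110 CPM, Top2a at 12.6 CPM, Bub1b at 2.36 CPM, LOC680322 at 1.27 CPM and Cidea at 0.58 CPM. In PAN+MP library 2, Epm2a stood above the others at 9.58 CPM.

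PAN+Pio library 2 was far below its group for Hist1h2bk at 5.83 CPM, Tpx2 at 9.98 CPM, LOC680322 at 1.15 CPM and Ccl2 at 1.53 CPM, and far above it for Sgk1 at 711 CPM. PAN+Pio library 3, the tagged one, was far above the others for Per1 at 117 CPM, Klf9 at 141 CPM, Ifit3 at 31.8 CPM and Art3 at 2.73 CPM, and far below them for Cry1 at 3.91 CPM and LOC103691628 at 0.734 CPM. In PAN+Pio library 1, Nqo1 stood above the others at 6.35 CPM.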

How the results depend on the processing

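No paired analysis was possible because the columns carry no replicate numbers. The count of 108 genes became 298 with DESeq2, 52 with limma-voom, 172 with the 8 drug libraries alone, 213 with the tubule score, 15 without the tagged libraries and 199 at an adjusted p under 0.1. Genes higher in PAN+Pio (73) became 192 with DESeq2, 24 with limma-voom, 134 with the tubule score, 11 without the tagged libraries and 133 at an adjusted p under 0.1. Genes lower (35) became 106 with DESeq2, 65 with the drug libraries alone, 79 with the tubule score, 4 without the tagged libraries, 66 at an adjusted p under 0.1 and 16 with a 2-fold minimum. The 13 mitosis calls became 5 with limma-voom and 1 without the tagged libraries. The 7 clock calls became 13 with DESeq2, 4 with limma-voom, 11 with the drug libraries alone and 0 without the tagged ones, and the 11 histone calls 18, 5, 6 and 3 in the same settings. Leaving out 1 library gave 0 to 130 genes in all, 0 to 93 higher, 0 to 37 lower, 0 to 15 mitosis genes, 0 to 7 clock genes and 0 to 15 histone symbols. Fewer libraries also leave fewer degrees of freedom, and the cause of these changes was not tested.

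Some values that were not called changed sign. Leaving out 1 library, the log2 fold change ran from −2.08 to 0.0302 for Mmp8 and −1.22 to 0.49 for Fkbp5, each highest without PAN+MP library 4. It ran from −0.034 to 0.66 for Cd3e, lowest without PAN+Pio library 4, and from -0.00101 to 1.52 for Fabp4, lowest without PAN+Pio library 3, with -0.00326 without the tagged libraries. A further 42 sign changes, in 14 genes, were of uncalled values within 1 SE of 0. Depth limits genes near 1 CPM or below, such as Fabp4, Pparg and Aldh3a1, and 4 libraries per group limit the rest.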
